A study of Mus musculus with 18 samples.

Results

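The activator protein 1 (AP-1) genes described here are Fos, Fosl2, Jun, Junb, Atf3 and Maff, chosen by name as the probe sets annotated to those single symbols. The names were chosen with earlier results of these data known, so counts of these genes set beside all genes are descriptions. They are 6 of the 14807 singly named genes of the arrays, each is measured by 1 probe set, and none of them is on a probe set annotated to several genes. Expression was measured on 18 Affymetrix arrays in 6 groups of 3. In the cortex of male C57BL/6J mice the groups were animals sampled after recovery from 6 h of sleep deprivation, animals sampled directly at the end of 6 h of sleep deprivation, and controls left undisturbed in the home cage. The recovery is 18 h in the source labels and 24 h in the treatment protocol. Each cortex array held RNA pooled from 3 mice of 1 group, out of 9 mice per group. The primary cultures of C57BL/6J cortex, taken at birth or on embryonic days 16 to 18, were sampled 24 h after an excitatory neurotransmitter cocktail, 3 h after the cocktail, or 3 h after a sham stimulation with water. These were 9 dishes of 3 cultures, and no sham dish was sampled at 24 h. All p-values rest on the spread among these few pools and dishes and cover no other source of variation.

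AP-1 is a family of dimeric transcription factors that bind DNA through a basic region and pair through a leucine zipper (bZIP). Fos proteins pair with Jun proteins, Jun proteins also pair with each other and with Atf3, and the small Maf proteins, of which Maff is one, have no activation domain of their own. In neurons, calcium entry and kinases of the MAP kinase cascade act on factors already present at the Fos promoter, so that Fos and several relatives are transcribed within minutes of stimulation without new protein synthesis. Fos messenger RNA is short-lived, and its rise in the cortex is a widely used marker of recent neuronal activity, including wakefulness.

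The sequences in front of the 6 genes are shown because the cAMP response element (CRE) and the AP-1 sites are the elements through which activity and the AP-1 proteins themselves act on such promoters. The 200 bases before each annotated start were taken from RefSeq on GRCm38.p6, and all 6 symbols were matched. They lie at chr12:85473690-85473889 on the plus strand for Fos, at chr5:32136272-32136471 on the plus strand for Fosl2, and at chr4:95052223-95052422 on the minus strand for Jun. For Junb they lie at chr8:84978749-84978948 and for Atf3 at chr1:191183334-191183533, both on the minus strand. Maff has 3 annotated starts on the plus strand, of which the second, at chr15:79347320-79347519, is shown as the one with a full CRE. Each is written 5′ to 3′ on the strand of the gene, and capitals mark the motif matches.

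Fos: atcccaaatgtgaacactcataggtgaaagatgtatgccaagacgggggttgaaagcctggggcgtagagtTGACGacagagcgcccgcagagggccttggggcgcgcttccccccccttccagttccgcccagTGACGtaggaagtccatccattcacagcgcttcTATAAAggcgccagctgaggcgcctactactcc
Fosl2: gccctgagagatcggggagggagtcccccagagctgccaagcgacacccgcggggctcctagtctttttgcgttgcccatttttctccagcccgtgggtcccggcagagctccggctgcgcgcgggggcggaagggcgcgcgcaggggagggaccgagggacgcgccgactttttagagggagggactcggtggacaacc
Jun: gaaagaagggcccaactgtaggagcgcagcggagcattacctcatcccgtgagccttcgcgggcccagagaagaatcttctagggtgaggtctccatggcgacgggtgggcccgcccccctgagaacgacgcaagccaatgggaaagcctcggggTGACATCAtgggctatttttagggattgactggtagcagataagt
Junb: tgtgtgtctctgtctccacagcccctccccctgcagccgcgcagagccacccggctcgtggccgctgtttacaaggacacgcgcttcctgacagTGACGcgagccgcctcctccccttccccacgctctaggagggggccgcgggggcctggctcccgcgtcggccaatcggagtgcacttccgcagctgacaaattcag
Atf3: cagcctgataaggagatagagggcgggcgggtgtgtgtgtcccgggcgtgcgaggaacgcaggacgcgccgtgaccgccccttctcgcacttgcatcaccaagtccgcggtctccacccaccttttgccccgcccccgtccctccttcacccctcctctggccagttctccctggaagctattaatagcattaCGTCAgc
Maff, second start: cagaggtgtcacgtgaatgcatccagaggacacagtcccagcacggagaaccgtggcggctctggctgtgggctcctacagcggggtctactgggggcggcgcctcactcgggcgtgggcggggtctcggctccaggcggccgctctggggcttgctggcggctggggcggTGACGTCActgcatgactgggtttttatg

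The motifs searched on both strands were the CRE (TGACGTCA), its core (TGACG, which the CRE contains on each strand), the phorbol ester response element or TRE (TGACTCA), the related site known from the Jun promoter (TGACATCA) and the CArG box. The TATA box (TATAAA) was searched on the strand of the gene. The CRE core was present in 5 of the 8 windows of these genes, against 15.7% of all 32851 windows of the table. Fos had it at positions -129 and -66 counted from the start, Junb at -106, and Atf3 at -7 on the opposite strand. The full CRE, found in 1.47% of all windows, occurred in the second Maff window alone, at -29. The Jun-type site, in 2.66% of all windows, lay at -45 both in Jun and in the third Maff window, which also held a CRE core at -122. A TATA box, in 6.27% of all windows, was present in Fos at -33. The TRE (3.66% of all windows) and the CArG box (1.18%) had no match in these windows, and Fosl2 and the first Maff start had none of the 6 motifs. Sequence outside the windows was not searched. The search therefore cannot tell whether these genes have a TRE or a CArG box further upstream. The matches are letters in a window, and binding was not measured.

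**Figure D1:**
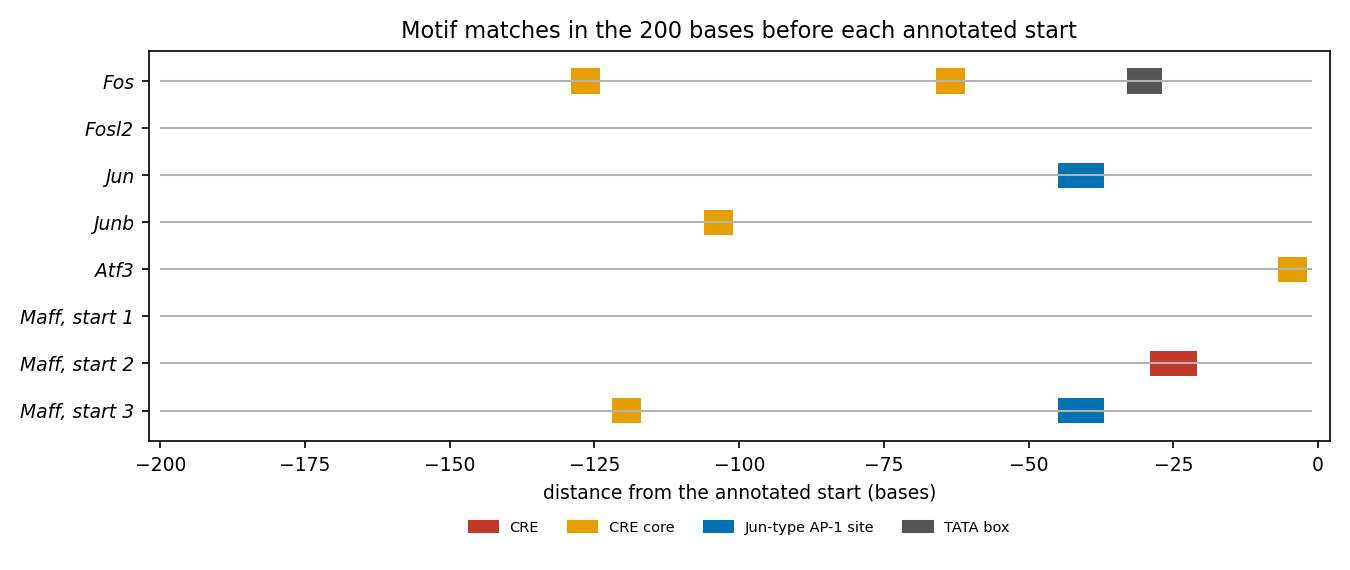
Motif matches in the 200 bases before each annotated start, with the distance from the start in bases on the horizontal axis and 1 line per start (Maff has 3). The CRE core is the most frequent match, in 5 of 8 windows when the full CRE of the second Maff window, which contains it, is counted.

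Signals are log2 values of the robust multi-array average (RMA), for which a difference of 1 is a doubling, and no detection call was used, so whether a low signal lies above background is not known. Arrays of the same group correlated at 0.979 to 0.993. Cell type markers were lower in sham cultures than in control cortex for 8 of 8 microglia, 6 of 6 endothelial, 7 of 7 oligodendrocyte and 7 of 9 pericyte and fibroblast genes. They were higher for 4 of 4 immature neuron genes, 4 of 4 genes of dividing cells, 4 of 5 oligodendrocyte precursor genes, 6 of 9 neuron genes and 3 of 6 astrocyte genes (1 lower), where 61% of all genes were higher and 15.3% lower. The standard deviation across probe sets was 2.77 to 2.80 on culture arrays and 2.29 to 2.31 on cortex arrays, so each system was fitted alone and differences between systems were tested in a model of all 18 arrays. That model has a shared spread per gene, so its p-values assume an equal spread among cortex pools and culture dishes. This did not hold for the 6 genes. Fitted by system, the standard error (SE) of 3 h minus sham cultures exceeded that of sleep-deprived minus control cortex for each gene. It was 0.54 in culture and 0.12 in cortex for Fos, 0.47 and 0.07 for Atf3, and 0.14 and 0.04 for Jun. In bulk RNA, fewer cells of a type and less RNA per cell cannot be told apart.

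In the cortex, sleep deprivation was accompanied by a rise of Fosl2 and Junb, while Jun, Atf3 and Maff did not pass the test and their signals overlapped between groups. In limma's fit of the 9 cortex arrays, 2 of the 6 genes were higher in sleep-deprived cortex than in control cortex at an adjusted p under 0.05, and none was lower. Among all genes, 0.723% were higher and 0.905% lower by the same rule. Fos, the founding member of the family, had the largest difference of the 6 but did not pass.

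Fos, which pairs with Jun proteins and cannot pair with itself, read 7.11, 6.67 and 7.10 in the 3 sleep-deprived pools, against 6.24, 6.39 and 6.52 in the control pools. Every sleep-deprived pool was above every control pool, as for 7.68% of all genes (11.1% were below throughout), and pool 2 stood below the other sleep-deprived pools. The difference was 0.58 ± 0.12 (SE, n = 3 each, 95% interval 0.29 to 0.87), with an adjusted p of 0.080 in limma. Without sleep-deprived pool 2, limma gave Fos a difference of 0.72 and an adjusted p of 0.025. Without any other pool of the groups compared, Fos did not pass, with differences of 0.50 to 0.65 and adjusted p-values of 0.097 to 0.223 in limma.

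Fosl2, also called Fra-2, a Fos relative without the strong activation domain of Fos, read 8.51, 8.35 and 8.54 in sleep-deprived pools, against 8.07, 7.97 and 7.83 in control pools. The groups did not overlap, and the difference of 0.51 ± 0.08 (SE, n = 3 each) is a 1.42-fold rise with an adjusted p of 0.024 in limma. Junb, a Jun relative that is a weaker activator than Jun and can oppose it, read 8.10, 8.09 and 8.00 in sleep-deprived pools, against 7.74, 7.56 and 7.66 in control pools. These groups did not overlap either, and Junb rose by 0.41 ± 0.06 (SE, n = 3 each), or 1.33-fold, with an adjusted p of 0.017 in limma.

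Both calls depended on single pools. Neither gene passed without control pool 2 (adjusted p = 0.090 for Fosl2 and 0.056 for Junb, limma) or without sleep-deprived pool 1 (0.104 and 0.081). Fosl2 alone was lost without control pool 3 (0.054) or sleep-deprived pool 3 (0.094), and Junb alone without sleep-deprived pool 2 (0.065). The differences over these fits stayed between 0.45 and 0.57 for Fosl2 and between 0.36 and 0.45 for Junb.

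Jun, the member most often found as the partner of Fos, read 8.27, 8.24 and 8.17 in sleep-deprived pools, against 8.27, 8.30 and 8.27 in control pools. The groups overlapped, and the difference of -0.05 had a 95% interval of -0.16 to 0.05. Atf3, a stress-induced member of the ATF group, read 5.84, 5.76 and 5.75 in sleep-deprived pools, against 5.84, 5.75 and 5.67 in control pools. Its difference of 0.03 had an interval of -0.12 to 0.19. Maff read 5.89, 5.78 and 6.02 in sleep-deprived pools, against 5.91, 5.87 and 5.89 in control pools. Its difference of 0.01 had an interval of -0.13 to 0.15. The intervals of these 3 genes reached 0.05, 0.19 and 0.15, so rises up to those sizes are not excluded. These upper ends lay under the differences of Fosl2 and Junb. Whether the low signals of Atf3 and Maff lay above background is not known.

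Among the cell type markers, the myelinating oligodendrocyte gene Opalin (-0.84 ± 0.06, adjusted p = 0.0017) and the immature neuron gene Dcx (-0.62 ± 0.03, adjusted p = 2.2e-04) fell with sleep deprivation in limma, and no other marker passed. They were 1 of 7 oligodendrocyte genes, which had a median difference of -0.07 and reached 0.23 for Mobp, and 1 of 4 immature neuron genes, which had a median of -0.02. The mean of the 9 neuron markers was 11.63 to 11.67 over the sleep-deprived pools, against 11.59 to 11.64 over the control pools. Their part in the AP-1 differences was not tested.

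After recovery, none of the 6 genes differed from control cortex, where 0% of all genes passed and limma gave 427 genes an unadjusted p under 0.05. Fos read 6.31, 6.35 and 6.45 in recovered pools, within the range of the control pools, and its difference from control was -0.01 (95% interval -0.30 to 0.28). Fosl2 read 7.84, 7.98 and 8.01 (-0.01, interval -0.19 to 0.17), and its pools overlapped with control. Junb read 7.78, 7.77 and 7.66 in recovered pools, overlapping with control, at a difference of 0.08 (interval -0.05 to 0.22). The intervals of Jun (-0.07 to 0.14), Atf3 (-0.24 to 0.07) and Maff (-0.16 to 0.12) also held 0. The single readings in recovered pools were 8.27, 8.27 and 8.40 for Jun, 5.74, 5.73 and 5.53 for Atf3, and 5.80, 5.91 and 5.89 for Maff, all overlapping with control pools.

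Set against sleep-deprived cortex, recovered cortex had lower Fosl2 and Junb, and 2 of the 6 genes passed where 0.79% of all genes fell and 1.47% rose. Of the genes called, 65.0% were higher in recovered cortex, and 51.0% after quantile normalization. Fosl2 fell by 0.52 ± 0.08 (adjusted p = 0.018) and Junb by 0.33 ± 0.06 (adjusted p = 0.033) in limma (SE, n = 3 each). No recovered pool reached the lowest sleep-deprived pool for Fos, Fosl2, Junb or Atf3, 4 of 6 genes where 7.92% of all genes showed this, and every recovered pool was above the sleep-deprived pools for Jun (14.4% of all genes). The nearest recovered and sleep-deprived pools read 5.7449 and 5.7506 for Atf3 and 8.2730 and 8.2727 for Jun, so these 2 genes were barely apart. Fos was lower by an amount similar to that of Fosl2 (-0.59 ± 0.12) and did not pass (adjusted p = 0.059). This comparison and the one with control share the sleep-deprived pools, so the fall is not independent of the rise. Jun (0.09 ± 0.04), Atf3 (-0.12 ± 0.07) and Maff (-0.03 ± 0.06) did not pass. Neither fall passed without recovered pool 1, sleep-deprived pool 1 or sleep-deprived pool 3, where the adjusted p in limma was 0.069, 0.084 and 0.076 for Fosl2 and 0.085, 0.119 and 0.070 for Junb. Without recovered pool 2, recovered pool 3 or sleep-deprived pool 2, Fosl2 passed alone or with Fos and Junb did not (adjusted p = 0.068, 0.090 and 0.098 for Junb).

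**Figure D2:**
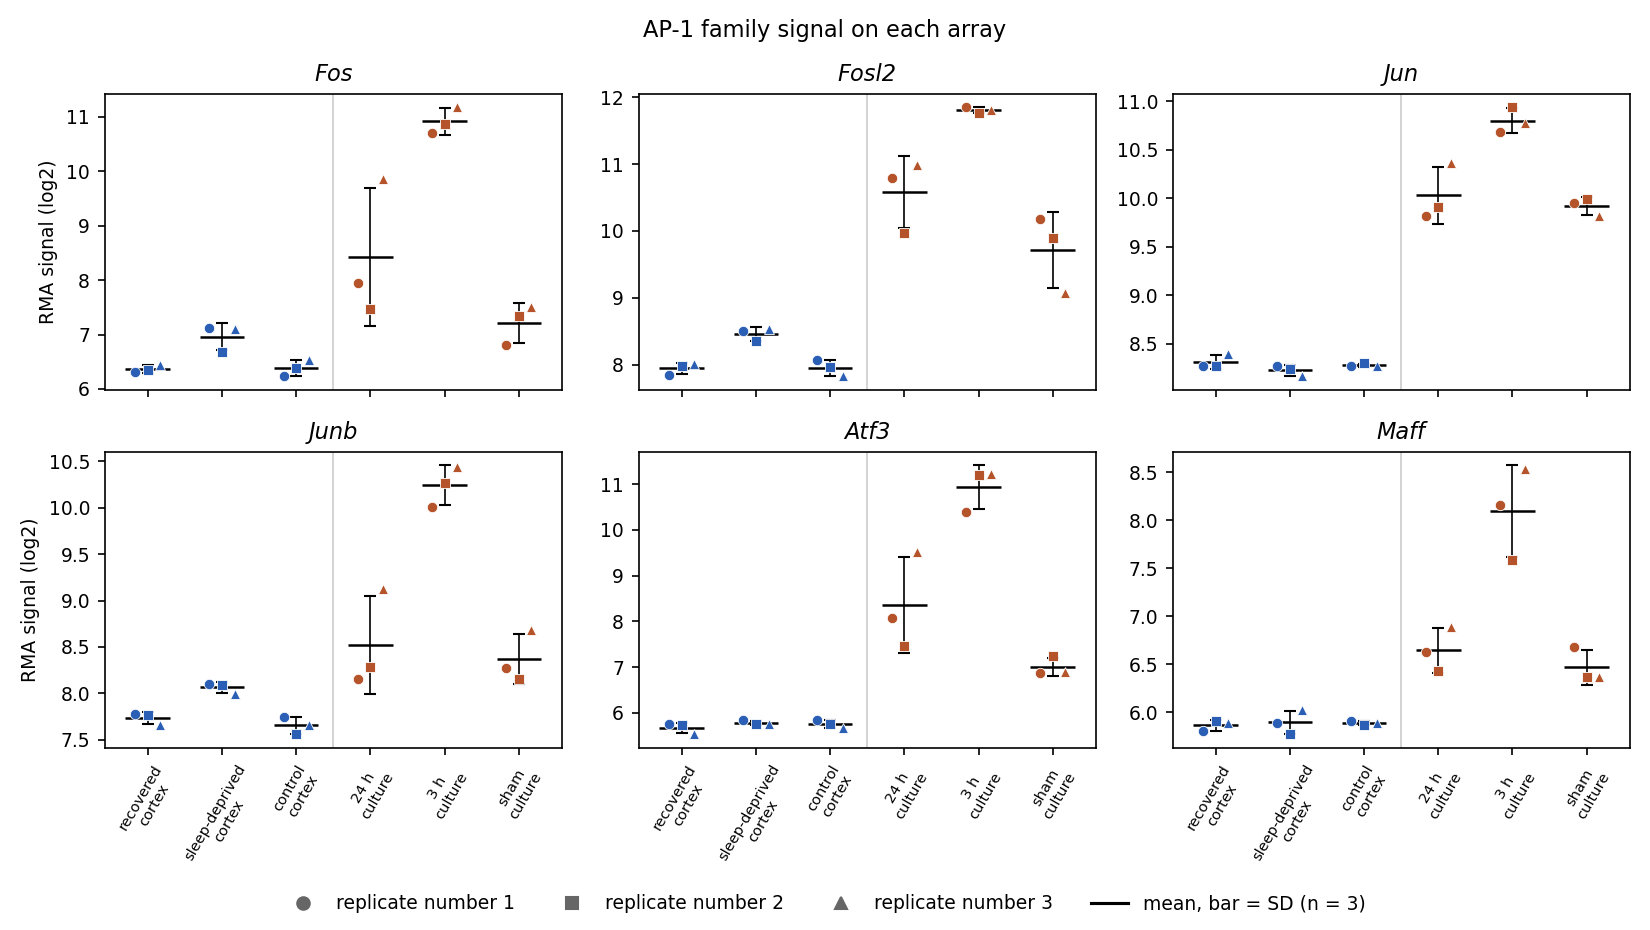
RMA signal (log2) of the 6 AP-1 genes on each of the 18 arrays, by group, with the mean and SD of 3 arrays; the symbol gives the replicate number and each panel has its own vertical scale. The 3 h culture dishes stand above all other arrays for every gene, and in cortex the sleep-deprived pools stand above the others for Fos, Fosl2 and Junb.

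In culture, all 6 genes rose 3 h after the excitatory cocktail, and for each of them every stimulated dish was above every sham dish, as was so for 6.94% of all genes (14.4% were below throughout). By limma's fit of the 9 culture arrays 6 of 6 passed, where 0.898% of all genes were higher and 0.554% lower than in sham dishes. The genes were chosen with earlier results of these data known, so this count does not test the family as a whole. Of the genes called, 61.9% were higher, and 75.5% after quantile normalization. The rises ran from 1.84-fold for Jun to 15.3-fold for Atf3, which had the largest rise of all 14807 genes. The median difference of the 6 was 1.98, against -0.03 over all genes.

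Fos read 10.70, 10.86 and 11.18 in the stimulated dishes, against 6.81, 7.34 and 7.50 in the sham dishes. The 3 stimulated dishes lay more than 3 above the highest sham dish, a rise of 3.70 ± 0.54 (SE, n = 3 each), or 13.0-fold, with an adjusted p of 0.024. Within the 3 cultures, taken by dish number, stimulated minus sham was 3.89, 3.53 and 3.68. Fosl2 read 11.85, 11.76 and 11.81 in stimulated dishes, against 10.18, 9.90 and 9.08 in sham dishes. The stimulated dishes were close together and the sham dishes spread over more than 1, with dish 3 lowest, so that the difference by dish number was 1.68, 1.86 and 2.73. The rise was 2.09 ± 0.32 (SE, n = 3 each), or 4.25-fold, with an adjusted p of 0.027 in limma.

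Jun read 10.68, 10.94 and 10.77 in stimulated dishes, against 9.94, 9.99 and 9.81 in sham dishes. It had the smallest rise of the 6, 0.88 ± 0.14 (SE, n = 3 each, adjusted p = 0.033, limma), and both groups were tight. Junb read 10.01, 10.27 and 10.44 in stimulated dishes, against 8.27, 8.16 and 8.68 in sham dishes. Culture 3 was the highest in both groups, and by dish number the difference was 1.74, 2.11 and 1.76. The rise of Junb was 1.87 ± 0.26 (SE, n = 3 each), or 3.66-fold, with an adjusted p of 0.022 in limma.

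Atf3 read 10.38, 11.21 and 11.22 in stimulated dishes, against 6.87, 7.24 and 6.90 in sham dishes. Stimulated dish 1 was the lowest of its group and still more than 3 above the highest sham dish, and the rise was 3.94 ± 0.47 (SE, n = 3 each, adjusted p = 0.014, limma). Maff, which pairs with itself, with other small Maf proteins and with cap'n'collar factors, read 8.16, 7.58 and 8.54 in stimulated dishes, against 6.68, 6.37 and 6.36 in sham dishes. Stimulated dish 2 was the lowest, the groups did not overlap, and the rise of 1.62 ± 0.23 (SE, n = 3 each) was 3.08-fold with an adjusted p of 0.023 in limma.

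These 6 calls needed all 6 dishes, although the sizes did not. Leaving out 1 dish left 0 genes past the threshold without sham dish 1, 2 or 3 or stimulated dish 3, 1 without stimulated dish 1 (Atf3) and 2 without stimulated dish 2 (Atf3 and Maff). The adjusted p over these limma fits was 0.045 to 0.071 for Atf3, 0.065 to 0.098 for Junb, 0.067 to 0.105 for Fos, 0.067 to 0.111 for Fosl2, 0.017 to 0.105 for Maff and 0.091 to 0.136 for Jun. The differences stayed between 3.79 and 4.21 for Atf3, 3.50 and 3.84 for Fos, 1.77 and 2.32 for Fosl2, 1.77 and 2.03 for Junb, 1.40 and 1.88 for Maff and 0.81 and 0.94 for Jun. With the replicate number as a block, all 6 still passed and limma called 358 of all genes in place of 215.

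Of the cell type markers, the pericyte gene Pdgfrb fell in stimulated dishes against sham dishes (-0.89 ± 0.10, adjusted p = 0.011, limma), and no other marker passed. Pdgfrb was 1 of 9 pericyte and fibroblast genes, which had a median difference of 0.0036 and reached 0.08. The mean of the 9 neuron markers was 12.35 to 12.40 over stimulated dishes, against 12.22 to 12.29 over sham dishes. That of the 6 astrocyte markers was 9.76 to 10.19 over stimulated dishes, against 9.86 to 10.53 over sham dishes. The part of cell makeup in the rises was not tested.

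At 24 h after stimulation, none of the 6 genes passed against sham dishes, where 0% of all genes passed, limma gave 877 genes an unadjusted p under 0.05, and the smallest adjusted p of any gene was 0.369. The dishes of this group disagreed among themselves, and dish 3 was the highest for all 6 genes. Fos read 7.95, 7.47 and 9.85 in the 24 h dishes, and Atf3 8.08, 7.47 and 9.51. Dish 2 lay within or just above the sham range for both genes and dish 3 lay more than 2 above it. By dish number, 24 h minus sham was 1.15, 0.13 and 2.35 for Fos and 1.21, 0.23 and 2.61 for Atf3. The mean difference from sham was 1.21 ± 0.54 for Fos (95% interval -0.03 to 2.45) and 1.35 ± 0.47 for Atf3 (0.26 to 2.44), and neither passed (adjusted p = 0.84 and 0.81, limma). Without 24 h dish 3 the differences were 0.50 for Fos and 0.77 for Atf3, and the ranges with 1 dish left out were 0.50 to 1.69 and 0.77 to 1.79.

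Fosl2 read 10.79, 9.97 and 10.98 in the 24 h dishes, a difference from sham of 0.86 ± 0.32, and it overlapped with the sham dishes. The difference was 0.54 without sham dish 3 and 1.17 without 24 h dish 2. Jun read 9.82, 9.91 and 10.36, Junb 8.15, 8.28 and 9.13, and Maff 6.62, 6.43 and 6.89, and these also overlapped with sham. Their differences from sham were 0.11 ± 0.14, 0.15 ± 0.26 and 0.18 ± 0.23. Thus 3 genes were back within about 0.2 of sham on average, although the intervals reached 0.44 for Jun, 0.75 for Junb and 0.71 for Maff.

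The 24 h dish of culture 3 exceeded the higher of the other 24 h dishes by 1.90 for Fos and 1.43 for Atf3, gaps that 0.101% and 0.338% of all genes equalled or passed. The gap was 0.85 for Junb, 0.45 for Jun, 0.27 for Maff and 0.20 for Fosl2. Over all genes this dish was the highest of its group for 46.3%, and the median gap was -0.01. Its column median, 7.09, was the highest of the 18 arrays, and that of 24 h dish 2, 6.87, was the lowest. With every array centred on its median over the genes, the gap was 1.71 for Fos, 1.24 for Atf3, 0.51 for Junb, 0.11 for Jun, 0.073 for Maff and 0.0032 for Fosl2. Dusp1, the phosphatase that switches off MAP kinases, read 10.18, 10.35 and 11.81 in the same 24 h dishes and the astrocyte gene Gfap 9.90, 7.15 and 11.16. The astrocyte marker mean was 9.98 to 11.07 over the 24 h dishes, against 9.76 to 10.19 over the 3 h dishes and 9.86 to 10.53 over the sham dishes. Gfap was highest in dish 3 in the sham and 3 h groups too, and the part of these cells in the AP-1 readings was not tested.

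Compared with the 3 h dishes, all 6 genes read lower at 24 h with no overlap of the dishes, as did 5.32% of all genes (10% were above throughout), and Junb passed. It fell by 1.72 ± 0.26 (SE, n = 3 each, adjusted p = 0.048, limma), where 0.25% of all genes fell and 0.081% rose. Fos (-2.49 ± 0.54, adjusted p = 0.12), Atf3 (-2.59 ± 0.47, 0.079), Maff (-1.45 ± 0.23, 0.057), Fosl2 (-1.23 ± 0.32, 0.18) and Jun (-0.77 ± 0.14, 0.081) did not pass. Atf3 had the lowest difference of all genes. With the replicate number as a block, limma called Maff as well (adjusted p = 0.032), and 150 of all genes in place of 49. Without 24 h dish 3, 4 of the 6 passed, with differences of -3.20 for Fos (adjusted p = 0.0066), -3.16 for Atf3 (0.011), -2.02 for Junb (0.0095) and -0.93 for Jun (0.011). The fall of Junb did not pass without 24 h dish 1 (adjusted p = 0.150), 24 h dish 2 (0.096), or 3 h dish 1 (0.148), 2 (0.134) or 3 (0.211), and without 3 h dish 2 Maff passed in its place (0.044).

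**Figure D3:**
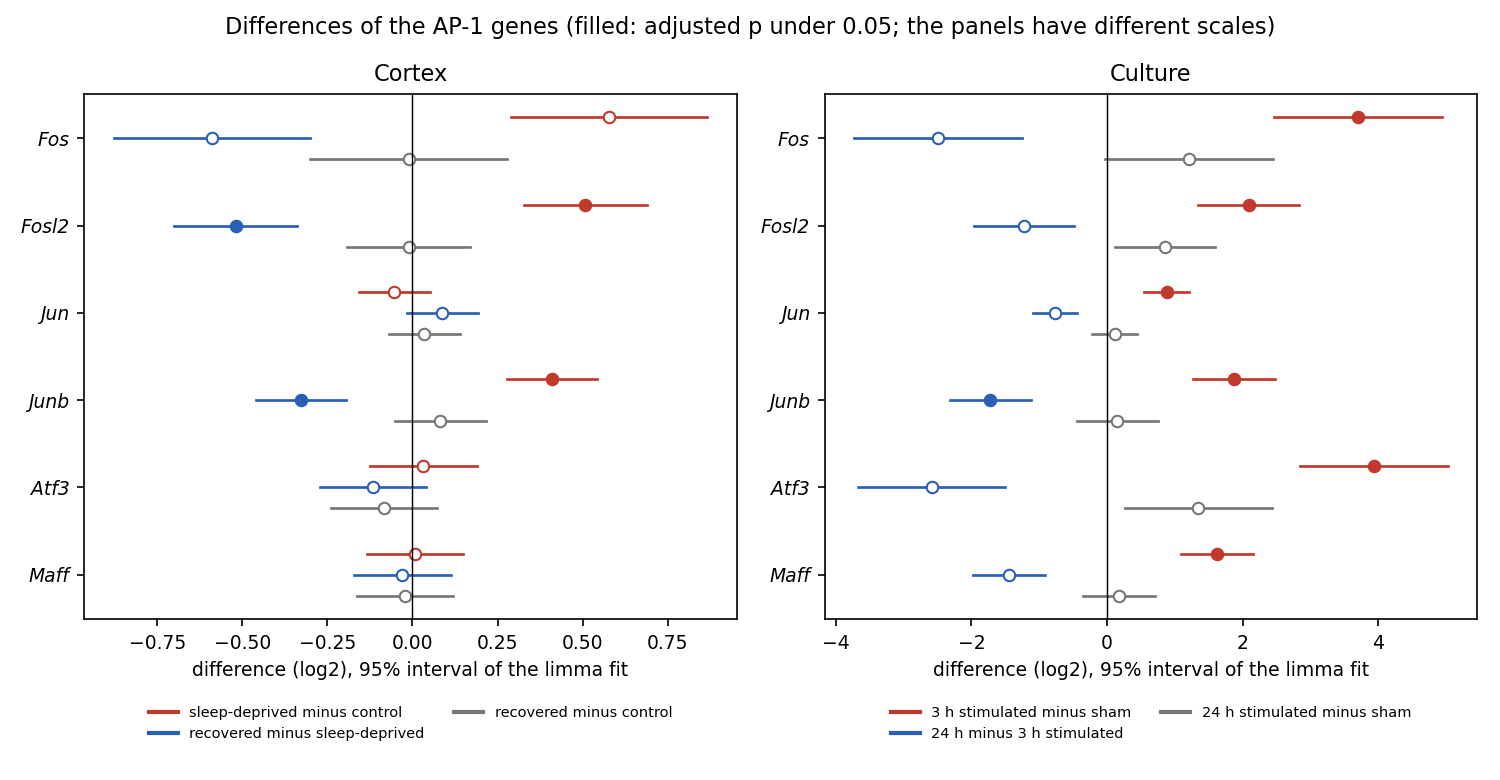
Difference (log2) of each AP-1 gene in the 3 comparisons of each system, with the 95% interval of the limma fit; filled points passed at an adjusted p under 0.05, and the scales of the cortex and culture panels differ. All 6 genes are filled and positive in 3 h stimulated minus sham cultures, while in cortex Fosl2 and Junb are.

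The stimulated cultures and the sleep-deprived mice were compared directly by testing whether the response, treated minus untreated, differed between the systems. For all 6 genes the culture response was larger, where 1.12% of all genes had a larger and 0.952% a smaller difference in culture. The excess in culture was 3.90 ± 0.51 for Atf3 (adjusted p = 0.0012) and 3.12 ± 0.59 for Fos (0.013) in limma. It was 1.62 ± 0.25 for Maff (0.0049), 1.58 ± 0.35 for Fosl2 (0.030), 1.46 ± 0.28 for Junb (0.014) and 0.93 ± 0.16 for Jun (0.0066). The order of the genes was not the same in both systems: Fos, Fosl2 and Junb led in cortex at 0.58, 0.51 and 0.41, with Atf3 at 0.03, whereas Atf3 led in culture at 3.94. Leaving out any cortex pool of these 2 groups, or stimulated dish 1 or 3, left 5 of the 6 differences past the threshold, with Fosl2 lost (adjusted p = 0.056 to 0.086). The equal spread that the p-values across systems assume did not hold for these genes, so they are less certain than those within a system. Agent, sampling delay, RNA kit and cell makeup differ between the systems and cannot be told apart from the system.

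The later step, 24 h minus 3 h in culture against recovered minus sleep-deprived in cortex, also differed for 4 of the 6 genes, where 0.709% of all genes were lower and 0.304% higher. The higher share was 30.0% of the genes called, and 41.5% after quantile normalization. The culture step minus the cortex step was -2.47 ± 0.51 for Atf3 (adjusted p = 0.029), -1.42 ± 0.25 for Maff (0.015), -1.39 ± 0.28 for Junb (0.028) and -0.86 ± 0.16 for Jun (0.016) in limma. Of these genes Junb fell in both systems, whereas the steps of Atf3, Maff and Jun passed in neither by themselves, and that of Jun in cortex was 0.09. Fos (-1.90 ± 0.59, adjusted p = 0.16) and Fosl2 (-0.71 ± 0.35, 0.43) did not pass, and the value of Fosl2 was -0.40 without 24 h dish 2. With the replicate number as a block, Fos passed too (adjusted p = 0.028) and limma called 715 of all genes in place of 150. The response and this step share the sleep-deprived and the 3 h arrays. The count was 1 without recovered pool 3 or sleep-deprived pool 3, 2 without any other pool of these 2 groups or without 3 h dish 3, and 5 without 24 h dish 3.

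Levels before treatment were also set side by side. Sham cultures read higher than control cortex for Fosl2 by 1.76 ± 0.25, Jun by 1.64 ± 0.11, Atf3 by 1.25 ± 0.36, Junb by 0.72 ± 0.20 and Maff by 0.58 ± 0.18, and 5 of the 6 passed. Fos, at 0.83 ± 0.42, did not (adjusted p = 0.082, limma), and passed with the replicate number as a block (0.025). By the same rule 61% of all genes were higher and 15.3% lower in culture, with a median difference of 0.50 over all genes, so the count of 5 says little about the family. The higher share was 80.0% of the genes called, and 53.4% after quantile normalization. After that normalization the median was 0.03, and Junb (0.03, adjusted p = 0.89) no longer passed.

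In culture, each gene ran in the same order by group mean, with the 3 h dishes highest, then the 24 h dishes and then sham. The 3 h dishes were above all 24 h and sham dishes for all 6 genes, where 2.71% of all genes showed this, and the 24 h and sham dishes overlapped for each gene but Atf3, whose 24 h dishes were all higher (3.38% of all genes). In cortex the sleep-deprived pools were highest and apart from both other groups for Fos, Fosl2 and Junb, where 4.98% of all genes showed this, and neighbouring groups in the order overlapped for the other genes.

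Over the 9 culture arrays the 6 genes moved together, with Pearson correlations between 0.82 (Fosl2 with Junb) and 0.99 (Fos with Atf3). Over the 9 cortex arrays Fos, Fosl2 and Junb correlated at 0.77 to 0.88, while Jun was negative with each of the others, at -0.34 to -0.64. These values describe arrays that share their group means. The genes most like Fos in culture were Atf3 (0.99) and the orphan nuclear receptor Nr4a1 (0.99), another immediate early gene. Those most like Fosl2 were the salt-inducible kinase Sik1 (0.99) and Jund (0.99), those most like Atf3 were Csrnp1 (0.99) and Fos, and those most like Junb were St8sia4 (0.99) and Dxo (0.98). Jun ran with Sf1 and Tnfaip6 (0.98 each), and Maff with Cwc25 and Tinf2 (0.98 each). In cortex the closest were Dmtf1 (0.98) and Elavl4 (0.96) for Fos, Plekha3 and Mfsd2a (0.98 each) for Fosl2, and Rasd1 (0.96) and Xbp1 (0.95) for Junb. Each is the highest of 14785 correlations in cortex or 14799 in culture, over 9 arrays. Over all genes with any spread, the median of each gene's highest correlation was 0.969 in cortex and 0.970 in culture, so values of this size are common and single out none of these genes.

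The genes that pair with, switch on, switch off or answer to AP-1 were followed in 4 lists. Of the other bZIP partners, 12 of 17 were measured, and 2 rose in stimulated against sham cultures, where 0.898% of all genes did. Jund, the Jun relative with the steadiest expression, read 10.57, 10.57 and 10.57 in stimulated dishes, against 9.96, 9.86 and 9.47 in sham dishes (0.81 ± 0.13, adjusted p = 0.029, limma). Mafk, a small Maf like Maff, read 8.10, 8.31 and 8.31 in stimulated dishes, against 7.63, 7.48 and 7.36 in sham dishes (0.75 ± 0.10, adjusted p = 0.015). The stimulated dishes were above all sham dishes for both genes, as for 6.94% of all genes. The median of the list was 0.10, against -0.03 over all genes, and no other partner passed. In sleep-deprived against control cortex 0 of the 12 passed, with the smallest p for Jdp2 (0.19 ± 0.04, adjusted p = 0.082) and Atf4 (0.23 ± 0.07, 0.22). Mafk fell again at 24 h against 3 h (-0.72 ± 0.10, adjusted p = 0.036). Jdp2, which represses AP-1 sites, and Mafk differed between systems in their response, Jdp2 by -0.36 ± 0.07 (adjusted p = 0.013) and Mafk by 0.74 ± 0.13 (0.0087).

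Of the upstream kinases and promoter factors, 22 of 27 were measured and 0 passed in sleep-deprived against control cortex or in stimulated against sham cultures. The smallest p in culture belonged to Creb1, the CRE-binding protein (-0.53 ± 0.10, adjusted p = 0.056), and the kinase gene Rps6ka5 (-0.54 ± 0.14, 0.13). Creb1 read 9.77, 9.74 and 9.91 in stimulated dishes, against 10.36, 10.21 and 10.43 in sham dishes. Its stimulated dishes were all below the sham dishes, as for 14.4% of all genes. The largest difference of the list was that of Crem, a CRE-binding relative of Creb1, and went the other way. Crem read 8.31 at lowest, 8.38 at the median and 8.77 at highest in stimulated dishes, against 6.84, 7.22 and 7.37 in sham dishes. Its stimulated dishes were all above the sham dishes, as for 6.94% of all genes (1.34 ± 0.38, adjusted p = 0.14, limma). The later step of Creb1 differed between culture and cortex (0.63 ± 0.14, adjusted p = 0.046). In cortex the smallest p belonged to the kinases Mapk7 (-0.12 ± 0.03) and Mapk11 (0.17 ± 0.05), at an adjusted p of 0.13 each.

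The negative regulators moved most among the 4 lists in number of calls. Of 13 measured (of 15 listed), 3 were higher in sleep-deprived cortex and 4 in stimulated cultures. By the same rule 0.723% and 0.898% of all genes were higher. All of the regulators called were dual-specificity phosphatases, which remove phosphate from MAP kinases and make up most of the measured list. Dusp1 read 10.41, 10.40 and 10.42 in sleep-deprived pools, against 9.73, 9.79 and 9.80 in control pools (0.64 ± 0.03, adjusted p = 2.2e-04, limma). In the same comparison Dusp4 was higher by 0.80 ± 0.09 (adjusted p = 0.0062) and Dusp6 by 0.65 ± 0.11 (0.035). In stimulated against sham dishes Dusp1 rose by 1.98 ± 0.37 (adjusted p = 0.049), Dusp14 by 1.19 ± 0.13 (0.011), Dusp4 by 1.17 ± 0.20 (0.040) and Dusp6 by 0.74 ± 0.14 (0.046). The list median was 0.03 in cortex and 0.50 in culture, against -0.0027 and -0.03 over all genes. Recovered cortex had less Dusp1 (-0.32 ± 0.03, adjusted p = 0.0028) and Dusp4 (-0.70 ± 0.09, 0.0084) than sleep-deprived cortex. Dusp1 read 10.09, 10.07 and 10.11 in recovered pools, all between the control and the sleep-deprived pools, at 0.32 ± 0.03 above control (adjusted p = 0.096). Dusp14 fell at 24 h against 3 h (-1.17 ± 0.13, adjusted p = 0.020). It was the one listed regulator whose response (1.12 ± 0.14, adjusted p = 0.0011) and later step (-1.02 ± 0.14, 0.0031) differed between the systems.

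Of genes described as AP-1 targets, 25 of 29 were measured, and 1 rose in stimulated against sham cultures, where 0.898% of all genes did. The target that rose was Penk, which encodes the precursor of enkephalins. It read 12.13, 12.48 and 12.18 in stimulated dishes, against 9.88, 10.98 and 10.20 in sham dishes (1.91 ± 0.24, adjusted p = 0.015, limma). In the 24 h dishes it still read 11.86, 11.87 and 11.88, all above the sham dishes, as for 3.38% of all genes (1.52 ± 0.24, adjusted p = 0.37, limma). Its response differed between the systems by 2.15 ± 0.32 (adjusted p = 0.0034). Timp1, a protease inhibitor, read 6.76, 5.69 and 7.82 at 24 h, against 5.24, 5.08 and 5.21 in sham dishes, and did not pass (1.58 ± 0.51, adjusted p = 0.81). In sleep-deprived against control cortex 0 of the 25 passed, the nearest being the cyclin gene Ccnd1 (0.21 ± 0.04, adjusted p = 0.051) and the protease gene Plat (0.17 ± 0.05, 0.21). The list median was 0.04 in cortex and 0.09 in culture.

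**Figure D4:**
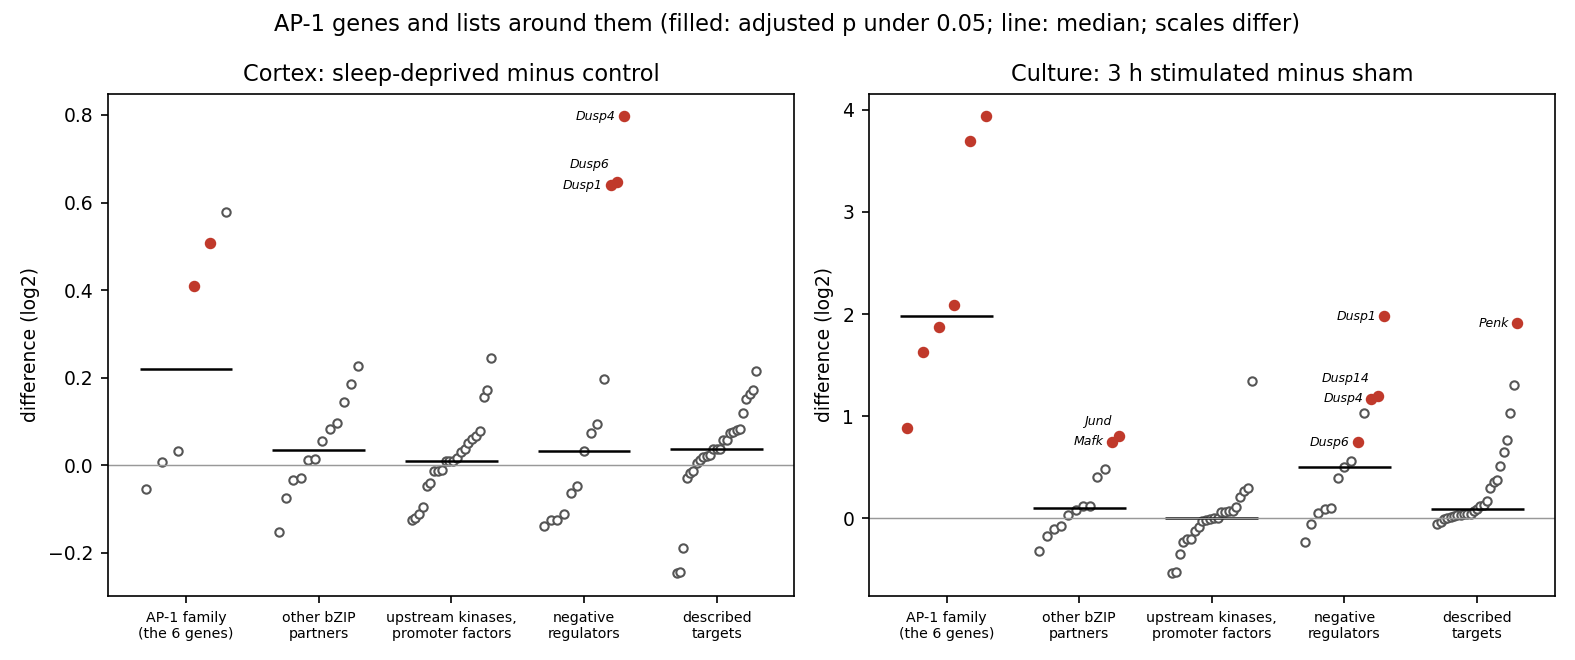
Difference (log2) of every measured gene of the AP-1 family and the 4 lists, in sleep-deprived minus control cortex and in 3 h stimulated minus sham cultures; lines are medians, filled points passed at an adjusted p under 0.05, and the scales differ. The named points are the phosphatases in both panels and Jund, Mafk and Penk in culture.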

How the data were processed

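Total RNA (100 ng per array) of mouse cortex pools and culture dishes was labelled with a whole-transcript sense protocol for Affymetrix arrays, per the labels' protocols. The deposited values are log2 signals that the authors made with RMA, per the submitters' processing notes. No source used here gives the RMA settings or says whether both systems were normalized jointly. Column medians lay between 6.87 and 7.09.

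Of 23238 probe sets, 14939 carried 1 gene symbol in the platform annotation, 989 several and 7310 none. By Entrez ID 14884 were matched to RefSeq names (GRCm38.p6), and 0 symbols changed. Where several probe sets named a gene (131 genes), the one of highest mean signal was taken, leaving 14807 genes, and no filter on low signal was set.

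The test was that of limma 3.58.1 under R 4.3.3 (lmFit, eBayes, two-sided), adjusted after Benjamini-Hochberg over the 14807 genes, with a threshold of 0.05. "Rose" and "fell" are used of genes that passed. Contrasts within cortex or culture used its 9 arrays, and those across systems used all 18. Other scalings, filters, weights, models and left-out arrays were tried.

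Same-numbered culture dishes deviated together from their group means (9 pairs correlated at 0.202 to 0.552, and 18 pairs of unlike number at -0.358 to 0.118). The labels speak of 9 dishes of 3 cultures, and values with the number as a block stand beside culture results where they change a call. Same-numbered cortex pools did not deviate together (-0.102 to 0.101).

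The members and lists were chosen with earlier results of these data known. All members are named, together with list genes that passed (at most 4 per list and comparison) or the 2 with the smallest p, though not for every list in every comparison. Gfap, Timp1, Mobp, Crem in culture and the 24 h readings of Dusp1 were named after their values were seen. Promoters were read from RefSeq with Python 3.11.15.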

Additional observations from a re-analysis of the deposited data

Results flagged for a closer look

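The response of each of the 6 AP-1 genes differed between the systems in limma's test of the difference itself. In stimulated minus sham cultures, less sleep-deprived minus control cortex, the excess was 3.12 for Fos, 1.58 for Fosl2, 0.93 for Jun, 1.46 for Junb, 3.90 for Atf3 and 1.62 for Maff (log2). Every stimulated dish was above every sham dish for these 6 genes and for 6.94% of all genes. Every sleep-deprived pool was above every control pool for Fos, Fosl2 and Junb and for 7.68% of all genes.

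The later step, 24 h minus 3 h in culture less recovered minus sleep-deprived in cortex, differed for Jun (-0.86), Junb (-1.39), Atf3 (-2.47) and Maff (-1.42) by the same test. That test assumes the same spread of a gene in cortex and culture, which did not hold for the AP-1 genes, whose spread was larger in culture. Groups of 3 arrays are too small for a test of single outlying arrays.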

How the results depend on the processing

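In sleep-deprived against control cortex the count of 2 AP-1 genes past the threshold became 1 with the replicate block, 0 with only the 6 arrays compared and 0 with all 18 arrays in one model. In recovered against sleep-deprived cortex the count of 2 became 0 with the replicate block, 1 with 6 arrays and 0 with 18. In 3 h stimulated against sham cultures it stayed at 6 in every fit that kept all dishes. For 24 h against 3 h cultures, the count of 1 became 4 after quantile normalization, 2 without the 30% of genes of lowest mean, 2 with the replicate block, 5 with array weights, 0 with 6 arrays and 6 with 18 arrays. The difference of responses stayed at 6 in all fits with every array.

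Leaving out 1 array at a time gave 0 to 2 AP-1 genes in sleep-deprived against control cortex, 0 to 2 in recovered against sleep-deprived cortex, 0 to 2 in stimulated against sham cultures, 0 to 4 in 24 h against 3 h cultures and 1 to 5 for the difference of the later step. Leaving out all dishes of 1 culture, an alternative added after the data were seen, gave 0, 0 and 2 genes for stimulated against sham without culture 1, 2 and 3, and 0, 0 and 1 for 24 h against 3 h. Fewer arrays also mean fewer degrees of freedom, and no other cause was tested.

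The signs that turned belonged to differences near 0 that had not passed. With 1 array left out, sleep-deprived minus control ran from -0.0087 to 0.076 for Atf3 and from -0.057 to 0.067 for Maff. Recovered minus control ran from -0.084 to 0.060 for Fos, -0.073 to 0.045 for Fosl2, -0.0072 to 0.055 for Jun and -0.043 to 0.0088 for Maff, and recovered minus sleep-deprived from -0.089 to 0.034 for Maff. In 24 h minus sham cultures Jun ran from -0.053 to 0.22 and Junb from -0.15 to 0.34. With array weights Fos turned to 0.010 in recovered minus control cortex, and Jun to -0.058 and Junb to -0.046 in 24 h minus sham cultures, where Jun was -0.10 without culture 3.

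The cortex numbers share no more than a number, and with them as a block Fosl2 no longer passed in sleep-deprived against control cortex (adjusted p = 0.082 in limma), nor Fosl2 (0.063) and Junb (0.052) in recovered against sleep-deprived cortex. Beyond these and the 3 gains given with the culture results (Maff in 24 h against 3 h cultures, and Fos in sham culture against control cortex and in the difference of the later step), the replicate block changed no call of an AP-1 gene.

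Over the fits that kept every array of the groups compared, limma called 31 to 681 of all genes in sleep-deprived against control cortex (241 as reported), 42 to 672 in recovered against sleep-deprived cortex (334), 180 to 1170 in stimulated against sham cultures (215), 1 to 872 in 24 h against 3 h cultures (49), 298 to 958 for the difference of responses (307) and 150 to 715 for that of the later step (150). It called at most 1 gene in recovered against control cortex and at most 64 in 24 h cultures against sham, in place of 0. Groups of 3 arrays limit the precision of every value.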
